A study of Mus musculus with 6 samples.

Results

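The genes of glucose breakdown to lactate and of the transcriptional response to low oxygen were followed as a set of 35 genes in mouse bone marrow exposed to tumour cell medium. The set was chosen by symbol, with earlier results of these data known. It holds 4 transporters of glucose and lactate, 17 glycolytic enzymes, 3 enzymes that control the flux through the pathway, the oxygen-regulated factor Hif1a, and 10 targets of hypoxia-inducible factors (HIF) without an enzymatic role in glycolysis. All 35 symbols were matched among the 45706 Ensembl gene identifiers of the count table, and all 35 were among the 15141 genes that passed the filter on low counts.

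RNA was sequenced from 6 libraries of mouse marrow. In 4 of them the marrow had received conditioned medium, that is, medium taken from cultured cells of a clear cell renal cell carcinoma (ccRCC) line. Each such library had the medium of another line, in turn VpR83, VpR99, VpR126 and VpR2020. The other 2 were controls, which the labels describe as marrow in control medium. The comparison asks how expression in marrow differs after exposure to tumour cell medium, and the 4 lines served as the replicates of conditioned medium. No source used here gives mouse strain, age, culture times or oxygen conditions. Whether each library had its own animal or culture is not stated, and the p-values therefore reflect only how these 6 libraries vary, which may be partly technical variation. Freshly isolated marrow is the comparator in the design text, whereas the sample labels name control medium, so the effects of medium and of time in culture cannot be told apart.

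Glycolysis splits glucose into pyruvate, which lactate dehydrogenase can reduce to lactate for export by monocarboxylate transporters. HIF is a pair of proteins, an oxygen-regulated α subunit such as HIF-1α and the stable partner ARNT. With oxygen present, prolyl hydroxylases (the Egln genes) modify the α subunit, and the von Hippel-Lindau protein then marks it for destruction. When it persists, the pair binds DNA at a short core motif and raises transcription of many glycolytic genes and of genes for mitochondrial turnover and collagen modification. Macrophages use the same factor in inflammatory activation, and the level of its protein cannot be read from its mRNA.

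Total counts lay between 18629708 and 28055913 in 5 libraries, with 129120559 in VpR99. A count of 0 allows up to 3 counts, or 0.0243 CPM (counts scaled to library size and TMM factor, as all CPM values here) in VpR99 and 0.166 CPM in VpR2020, the lowest and highest such limits. The cell makeup of the libraries differed strongly by its markers. All 12 macrophage markers were called higher, with summed levels of 17770 to 29550 CPM in conditioned libraries and 535 to 545 CPM in controls. All 12 erythroid markers were called lower, summing to 0.381 to 1.014 CPM in conditioned libraries and 2662 to 5984 CPM in controls, and Slc4a1, Car1 and Rhag had 0 counts in all 4 conditioned libraries. Of the neutrophil markers 9 of 12 were called lower (3374 to 17740 CPM in conditioned libraries, 82640 to 90360 CPM in controls), as were 6 of 8 B cell markers (43.4 to 362 CPM in conditioned libraries, 1016 to 1178 CPM in controls) and 8 of 8 T and NK cell markers (4.09 to 17.99 CPM in conditioned libraries, 137 to 146.0 CPM in controls). Of 6 megakaryocyte and platelet markers 2 were called higher (664 to 2340 CPM in conditioned libraries, 63.9 to 71.5 CPM in controls). Markers of tumour epithelium summed to 3.71 to 18.1 CPM in conditioned libraries and 20.7 to 22.6 CPM in controls, with Krt8 and Krt19 at 0 counts in all 4 conditioned libraries. Most of each sum came from Cdh1 (3.15 to 17.3 CPM in conditioned libraries, 16.7 and 13.3 CPM in controls). Of these 8 markers 5 were tested, and 3 were called lower.

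The set did not move as a block. In conditioned medium 7 members were higher (Hif1a, P4ha1, Aldoc, Bnip3, Pfkl, Pgam1 and Hk2) and 4 were lower (Slc2a3, Slc16a1, Pfkm and Mxi1), while 24 did not pass the test. The test was the quasi-likelihood test of edgeR, and a call needed a Benjamini-Hochberg adjusted p, taken over every tested gene, of less than 0.05. The 7 higher members are 20.0% of the set, against 22.5% of all tested genes called higher, and the 4 lower members are 11.4%, against 19.7%. In either direction 31.4% of the members were called, against 42.2% of all tested genes. All 4 conditioned libraries lay above both controls for 13 members and below both for 7, which makes 57.1% of the members, against 65.3% of all tested genes (32.0% above and 33.3% below). The median log2 fold change was 0.64 over the members and −0.01 over all tested genes. These counts depend on the libraries used. When control replicate 1 or 2 was left out, Hif1a, P4ha1 and Aldoc were the members still called, and without VpR126 there were 13 higher members in place of 7. Of all calls, 53.3% were in the higher direction. This share fell to 40.0% when libraries were scaled by upper quartiles and to 38.6% by library totals alone. These scalings shift the median of all genes by −0.21 and −0.24. Under both, 5 members were called higher and 6 lower. In these bulk libraries, fewer cells of a type and less RNA per cell cannot be told apart, and the part of the change in cell makeup in any of these differences was not tested.

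**Figure D1:**
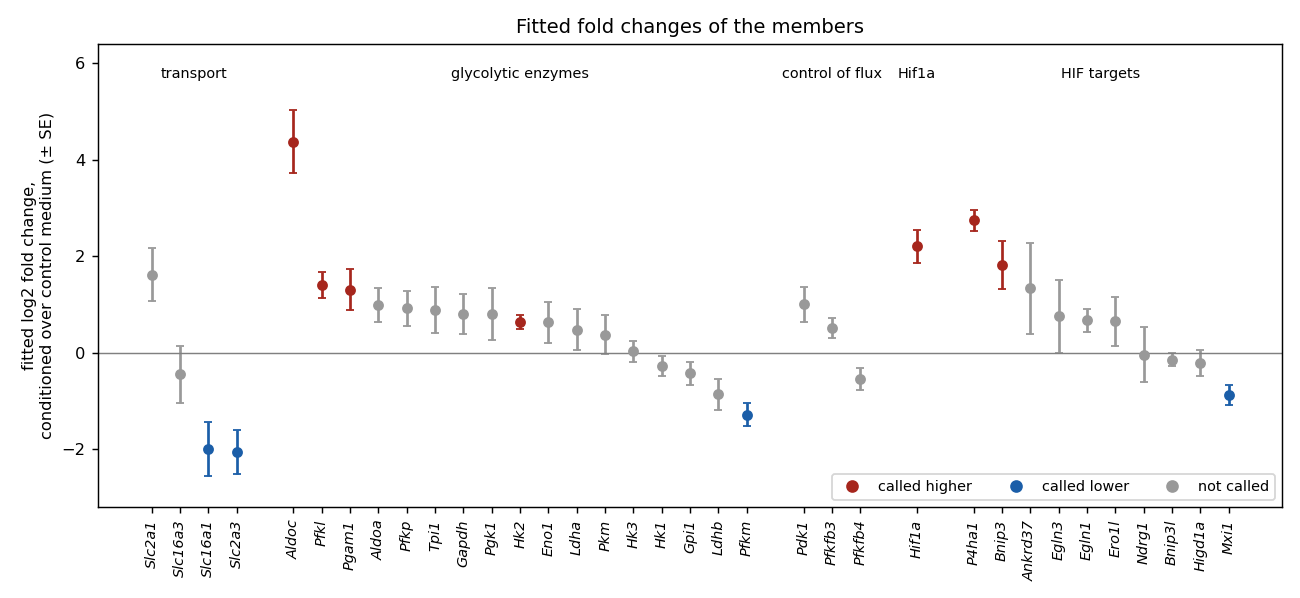
Fitted log2 fold change of each of the 35 members, conditioned over control medium, with bars of ± 1 SE, grouped by role and ordered by size within a role. Aldoc, Hif1a and P4ha1 stand highest, Slc2a3 and Slc16a1 lowest, and most enzymes lie between 0 and 1.5 without a call (grey).

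Hif1a, which encodes the oxygen-regulated subunit HIF-1α (chr12:73901375-73947530, GRCm38), rose in conditioned medium. It had 141 CPM in VpR83, 189.7 in VpR99, 293 in VpR126 and 189 in VpR2020, against 51.1 and 37.2 CPM in the controls. The lowest conditioned library was thus well above the higher control, and VpR126 stood highest. The means were 203 ± 64.0 CPM in conditioned and 44.2 ± 9.83 CPM in control libraries (SD, n = 4 and n = 2), which is 2.20 ± 0.34 (± SE) as a fitted log2 fold change (edgeR adjusted p = 0.00416). The call held in all 11 alternative analyses. A non-coding gene on the opposite strand, Gm15283, shares 330 exon bases with Hif1a, and no source used here gives the strand setting of the counting.

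Among 12 tested genes of HIF control outside the set, 4 were called higher (22.5% of all tested genes were) and 1 lower (19.7%), with a median log2 fold change of 0.06. Epas1, which encodes the related subunit HIF-2α, was the highest of them with 41.1 ± 11.9 CPM in conditioned and 1.16 ± 0.245 CPM in control libraries (5.13 ± 0.42, edgeR adjusted p = 0.000738). Ep300, a coactivator that HIF recruits, rose by 1.26 ± 0.15 on the log2 scale. Hif3a, which encodes another α subunit able to restrain HIF, fell by 3.28 ± 0.53 at very low levels (0.219 ± 0.117 CPM in conditioned and 2.22 ± 0.782 CPM in control libraries). Arnt and Cul2 made up the other higher calls. Vhl, the gene of the von Hippel-Lindau protein, was not called, with 38.3 ± 6.38 CPM in conditioned and 40.8 ± 5.89 CPM in control libraries. Arnt, Cul2 and Vhl fall outside the naming rule and were chosen after their values were seen.

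HIF binds the core motif ACGTG or GCGTG, so the promoter sequences of RefSeq (GRCm38.p6) were searched for these letters on both strands, where a palindromic CACGTG counts once on each strand. In the 250 bases upstream of the start, 39 of 47 promoter windows of members held at least one match (83.0%), against 38.6% of all 32851 windows and 53.8% of the 13605 windows of tested genes. By gene, 30 of 32 members with a window had a match in any of their windows, and Gpi1 and Tpi1 had none there. Some members have several windows, some of which overlap, and no share by gene was computed for other genes. The count by gene thus has no background beside it. The set was picked for glycolysis and for HIF targets, so a higher share of windows with the motif may come from that choice alone. It is not a result of these libraries, and base composition was not matched between members and other genes. Slc2a3, Bnip3l and Ndrg1 had no window in the table. To set genes of unlike behaviour side by side, 4 stretches of 150 bases are printed, each lying just before the outermost gene start that GENCODE or RefSeq annotates (for P4ha1 a RefSeq start, so that its stretch ends short of the GENCODE start), with each match in capitals on the strand shown (CACGT and CACGC are the matches read on the other strand). P4ha1 (chr10:59323047-59323196, plus strand) rose in all 4 conditioned libraries, Bnip3 (chr7:138909520-138909669, minus strand) rose and held the most matches of the printed stretches, Pgk1 (chrX:106186950-106187099, plus strand) was high in VpR83 and VpR99, and Pfkm (chr15:98092439-98092588, plus strand) fell.
P4ha1: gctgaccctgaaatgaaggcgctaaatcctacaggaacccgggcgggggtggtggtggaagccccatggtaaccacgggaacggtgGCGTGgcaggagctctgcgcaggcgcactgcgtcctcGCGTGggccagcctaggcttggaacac
Bnip3: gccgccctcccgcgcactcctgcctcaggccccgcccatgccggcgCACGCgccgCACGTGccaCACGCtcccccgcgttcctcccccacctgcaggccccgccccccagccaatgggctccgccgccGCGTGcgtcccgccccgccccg
Pgk1: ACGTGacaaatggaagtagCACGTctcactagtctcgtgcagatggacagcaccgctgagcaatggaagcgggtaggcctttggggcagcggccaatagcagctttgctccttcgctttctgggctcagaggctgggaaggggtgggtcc
Pfkm: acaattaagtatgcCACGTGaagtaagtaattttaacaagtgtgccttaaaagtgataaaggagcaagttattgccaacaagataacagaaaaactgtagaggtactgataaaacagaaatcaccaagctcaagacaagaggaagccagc
The P4ha1 and Pgk1 stretches hold 2 matches each, the Bnip3 stretch 5 and the Pfkm stretch 2, the last being both strands of one CACGTG. In these 4 genes the letters thus stood beside a rise, a fall and a difference between lines alike, and a match is a description of the sequence and not evidence of binding. Pfkm has 4 RefSeq starts, of which the outermost is printed, and the window at 98111810 to 98112109 held 0 matches. Which start is used in marrow was not tested.

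Glucose transport was divided between its genes. Slc2a3, which encodes the high-affinity glucose transporter GLUT3 (chr6:122727809-122801640), fell to 43.1 CPM in VpR83, 76.9 in VpR99, 128 in VpR126 and 41.9 in VpR2020, against 330.2 and 277 CPM in the controls. Every conditioned library was below both controls, and the log2 fold change was −2.07 ± 0.46 (edgeR adjusted p = 0.0136). Slc2a1, which encodes the widely used transporter GLUT1 (chr4:119108711-119137983), had 80.7, 120.3, 49.9 and 30.4 CPM in VpR83, VpR99, VpR126 and VpR2020, against 24.8 and 21.2 CPM in the controls. All 4 conditioned libraries were above both controls, but they spread widely and the difference missed the threshold (1.62 ± 0.55, edgeR adjusted p = 0.0549). It passed with DESeq2 (adjusted p = 0.00978) and in edgeR without VpR126 or VpR2020 (adjusted p = 0.0499 and 0.0212), and its adjusted p ran from 0.00978 to 0.232 over the alternatives. Slc2a3 fell short of the threshold without control replicate 1 or 2 (adjusted p = 0.084 and 0.0642).

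Among the lactate transporters of the set, Slc16a1 was called lower. Slc16a7, a monocarboxylate transporter gene outside the set, was called higher and is described with the neighbouring pathways. Slc16a1, which encodes the monocarboxylate transporter MCT1 (chr3:104638668-104658462), had 32.4, 68.8, 17.5 and 17.3 CPM in VpR83, VpR99, VpR126 and VpR2020, against 149.7 and 124.5 CPM in the controls. The groups did not overlap, with VpR99 closest to the controls, and the log2 fold change was −2.01 ± 0.56 (edgeR adjusted p = 0.0295), or −2.61 without VpR99. The call ended in 5 of the 11 alternatives, among them the removal of either control. Slc16a3, which encodes the lactate exporter MCT4, had 149, 229.6, 84.4 and 54.7 CPM in VpR83, VpR99, VpR126 and VpR2020, against 242.7 and 111.5 CPM in the controls. Its groups overlapped and the controls themselves were far apart (−0.45 ± 0.59, edgeR adjusted p = 0.559). The sign of this value turned without control replicate 1 (0.21).

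Of the 17 enzymes from hexokinase to lactate dehydrogenase, 4 were called higher (22.5% of all tested genes were), 1 lower (19.7% of all tested genes) and 12 not called. Their median log2 fold change was 0.64, against −0.01 over all tested genes. All 4 conditioned libraries were above both controls for 6 enzymes (32.0% of all tested genes), below both for 3 (33.3%), and overlapped them for 8. Under upper-quartile scaling or library totals alone, 2 enzymes were called higher and 2 lower. Per kilobase of exon, Gapdh (450.1 ± 184 CPM per kb), Aldoa (438.7 ± 151), Pkm (341 ± 145) and Ldha (242 ± 111) were the most abundant members in conditioned libraries, and the same 4 led in controls, with Pkm highest at 263.9 ± 0.354 CPM per kb. Their spreads in conditioned libraries exceeded the gaps between neighbours in this order.

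**Figure D2:**
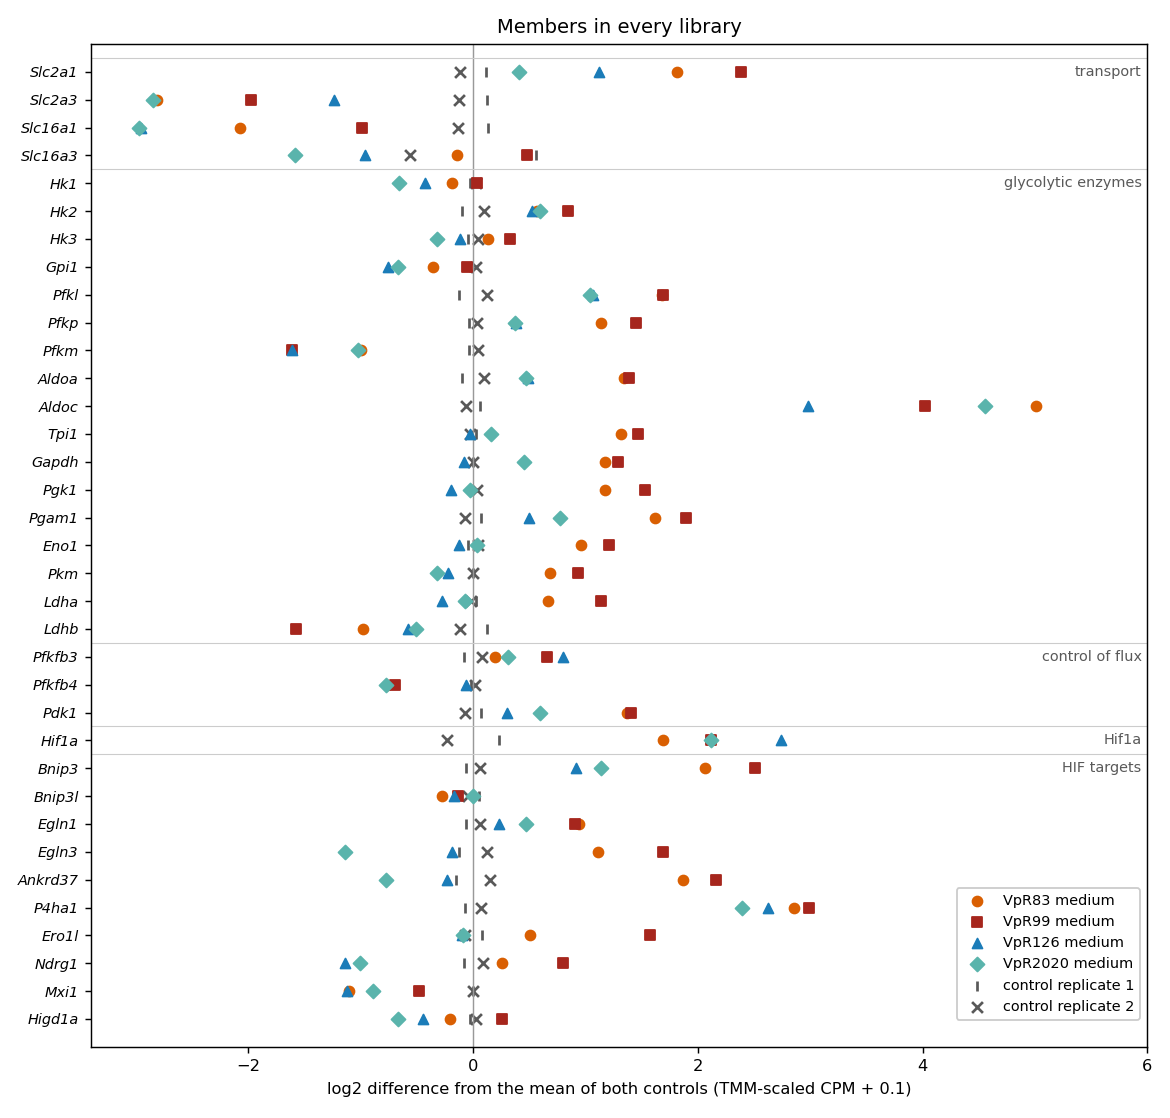
Difference of each library from the mean of both controls on the log2 scale of TMM-scaled CPM + 0.1, for all 35 members grouped by role. For many members VpR83 and VpR99 lie to the right of VpR126 and VpR2020, while Slc2a3, Slc16a1, Pfkm, Ldhb and Mxi1 lie to the left of both controls in all 4 conditioned libraries.

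Of the 3 hexokinases, which trap glucose by phosphorylating it, 1 was called. Hk2, the inducible form, had 107, 130.2, 104 and 109.9 CPM in VpR83, VpR99, VpR126 and VpR2020, against 67.8 and 77.6 CPM in the controls, and rose by 0.64 ± 0.15 on the log2 scale (edgeR adjusted p = 0.0177). This small difference was no longer called under upper-quartile scaling (adjusted p = 0.0538), with library totals alone (0.0935) or without control replicate 1 or 2 (0.146 and 0.0779). Hk1 and the myeloid form Hk3 overlapped the controls (−0.29 ± 0.21 and 0.03 ± 0.21), and the sign of Hk3 turned in 5 of 11 alternatives. Gpi1, which encodes glucose-6-phosphate isomerase, had 636, 785, 481 and 512 CPM in VpR83, VpR99, VpR126 and VpR2020, against 797.5 and 830.2 CPM in the controls. It was below both controls in every conditioned library, narrowly so in VpR99, and was not called (−0.43 ± 0.23, edgeR adjusted p = 0.175), except without VpR99 (0.0497).

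The 3 phosphofructokinases, subunits of the enzyme that commits sugar to glycolysis, moved apart. Pfkl, the liver-type subunit (chr10:77986947-78010083), had 198 CPM in VpR83, 200.2 in VpR99, 129.7 in VpR126 and 127 in VpR2020, against 56.9 and 67.4 CPM in the controls. Each conditioned library held more than either control, and the log2 fold change was 1.40 ± 0.27 (edgeR adjusted p = 0.00798). Pfkm, the muscle-type subunit (chr15:98092589-98132451), fell to 24.6, 16.03, 16.09 and 24.2 CPM in VpR83, VpR99, VpR126 and VpR2020, against 47.9 and 50.6 CPM in the controls (−1.29 ± 0.23, edgeR adjusted p = 0.00651). Erythroid markers fell in the same libraries, and their part in the fall of Pfkm was not tested. Pfkp, the platelet-type subunit, was above both controls in all 4 conditioned libraries without a call (0.91 ± 0.35, edgeR adjusted p = 0.0789). Pfkl and Pfkm both fell short of the threshold without control replicate 1 or 2, with adjusted p-values between 0.0511 and 0.0798. Pfkm shares 341 exon bases with Gm26513 and Pfkp 748 with Pitrm1, so reads of these pairs may be miscounted.

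The aldolases cleave fructose bisphosphate into a pair of trioses. Aldoc, the form best known from brain (chr11:78322968-78327781), had the largest rise of the set, with 73.0 CPM in VpR83, 36.7 in VpR99, 17.8 in VpR126 and 53.1 in VpR2020, against 2.27 and 2.07 CPM in the controls. Even its lowest conditioned library, VpR126, was far above both controls. The means were 45.1 ± 23.5 CPM in conditioned and 2.17 ± 0.14 CPM in control libraries, or 4.38 ± 0.65 as a log2 fold change (edgeR adjusted p = 0.00371), which was called in all 11 alternatives. Aldoa, the main aldolase, lay above both controls in every conditioned library (1630, 1683, 903 and 892 CPM in VpR83, VpR99, VpR126 and VpR2020, against 600.1 and 689 CPM in the controls) but missed the threshold (0.99 ± 0.35, edgeR adjusted p = 0.0612). It was called in 4 of the 11 alternatives. Per length, Aldoc made up a small share of aldolase transcripts, given with the family shares.

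For the enzymes of the lower, energy-yielding steps the conditioned libraries spread widely. Pgam1, phosphoglycerate mutase, was the one called higher, with 237, 287, 108.9 and 132 CPM in VpR83, VpR99, VpR126 and VpR2020, against 81.1 and 73.5 CPM in the controls (1.31 ± 0.43). Its edgeR adjusted p rounds to 0.05 from below, and the call ended in 7 of the 11 alternatives. Gapdh, Pgk1 and Ldha, shown as examples chosen after their values were seen, followed another pattern. Gapdh had 2396, 2592, 1002 and 1450 CPM in VpR83, VpR99, VpR126 and VpR2020, against 1061 CPM in both controls. Pgk1, phosphoglycerate kinase, had 522, 670.2, 202 and 228 CPM in the same order, against 226 and 238 CPM in the controls. Ldha, which makes lactate, had 913, 1268, 474 and 546 CPM, against 583.5 and 566 CPM. In all 3, VpR83 and VpR99 were well above the controls, and VpR126 was below them.

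Fitted log2 fold changes of the uncalled lower-step enzymes were 0.88 ± 0.48 for Tpi1, 0.81 ± 0.41 for Gapdh, 0.80 ± 0.53 for Pgk1, 0.63 ± 0.42 for Eno1, 0.37 ± 0.41 for Pkm and 0.48 ± 0.42 for Ldha, with edgeR adjusted p-values of 0.157 to 0.486. Among these 6 enzymes, Gapdh alone was called in any alternative, without VpR126 (adjusted p = 0.033). Ldhb, which favours the return of lactate to pyruvate, went the other way. It had 10.1, 6.61, 13.3 and 14.0 CPM in VpR83, VpR99, VpR126 and VpR2020, against 21.7 and 18.3 CPM in the controls. All 4 conditioned libraries were below both controls, lowest in VpR99, without a call (−0.87 ± 0.31, edgeR adjusted p = 0.064). It was called under upper-quartile scaling (0.0358), with library totals alone (0.0238) and without VpR99 (0.0461). Many of these enzyme genes have processed pseudogenes, to which the counting may have assigned reads.

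Of the 3 genes of flux control 0 were called in edgeR (2 at an unadjusted p below 0.05, and 1 with DESeq2), and each lay wholly on one side of the controls. Pfkfb3, whose product makes the activator of phosphofructokinase, had 72.8, 100.3, 110.6 and 78.9 CPM in VpR83, VpR99, VpR126 and VpR2020, against 59.9 and 67.2 CPM in the controls (0.51 ± 0.21, edgeR adjusted p = 0.0886). Pfkfb4, a second such enzyme, had 57.9, 61.0, 94.3 and 57.7 CPM, against 97.3 and 100 CPM in the controls (−0.54 ± 0.23, edgeR adjusted p = 0.0996). VpR126 stood apart from the other conditioned libraries for Pfkfb4, which was called without it (0.0052). Pdk1, which encodes a kinase that keeps pyruvate out of the mitochondrial citric acid cycle, had 110.0, 113, 52.7 and 64.5 CPM, against 44.7 and 40.6 CPM in the controls (0.998 ± 0.358, edgeR adjusted p = 0.0631). It was above both controls in every conditioned library and was called with DESeq2 (0.0329) and, in edgeR, without VpR126 (0.0187).

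Shares within a family compare related genes inside each library and do not depend on library scaling. They were computed from counts per kilobase of exon. Slc2a1 made up 79.5%, 76.4%, 44.6% and 60.0% of the Slc2a1 and Slc2a3 transcripts in VpR83, VpR99, VpR126 and VpR2020, against 13.4% and 13.6% in the controls. The larger share thus belonged to Slc2a1 in 3 of 4 conditioned libraries and to Slc2a3 in both controls. In VpR2020 this order rests on the exon lengths used. There Slc2a3 had more CPM without division by length (41.9, against 30.4 for Slc2a1). Pfkl made up 64.5% ± 2.54 of phosphofructokinase transcripts in conditioned and 33.2% ± 1.81 in control libraries (SD, n = 4 and n = 2), while Pfkm made up 16.5% ± 5.12 and 52.8% ± 1.42. Per kilobase, the leading subunit was Pfkl in every conditioned library and Pfkm in both controls. The lead of Pfkm rests on its shorter exon length (3340 bases, against 6675 for Pfkl). Without division by length, Pfkl was also ahead in both controls, with 56.9 and 67.4 CPM against 47.9 and 50.6 for Pfkm.

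Hk3 made up 74.2% ± 1.41 of the hexokinases in conditioned and 75.5% ± 0.101 in control libraries, and these groups overlapped. Aldoc reached 3.13% ± 1.59 of aldolase transcripts in conditioned libraries, against 0.301% ± 0.0486 in controls. Pdk1 took 56.6%, 47.6%, 28.0% and 38.4% of the pyruvate dehydrogenase kinases in VpR83, VpR99, VpR126 and VpR2020, against 20.96% and 19.1% in the controls, where Pdk3 led with 65.5% ± 0.0693. Pfkfb3 made up 46.5% ± 3.63 of the Pfkfb3 and Pfkfb4 transcripts in conditioned and 29.3% ± 1.27 in control libraries. Slc16a3 made up 76.3% ± 3.89 of the Slc16a1 and Slc16a3 transcripts in conditioned and 50.1% ± 10.4 in control libraries. Of the 25 shares tested, those whose groups did not overlap gave p = 0.133 in a two-sided exact permutation test (adjusted p = 0.167), the smallest value that 4 against 2 libraries allow, so the design cannot reach 0.05.

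**Figure D3:**
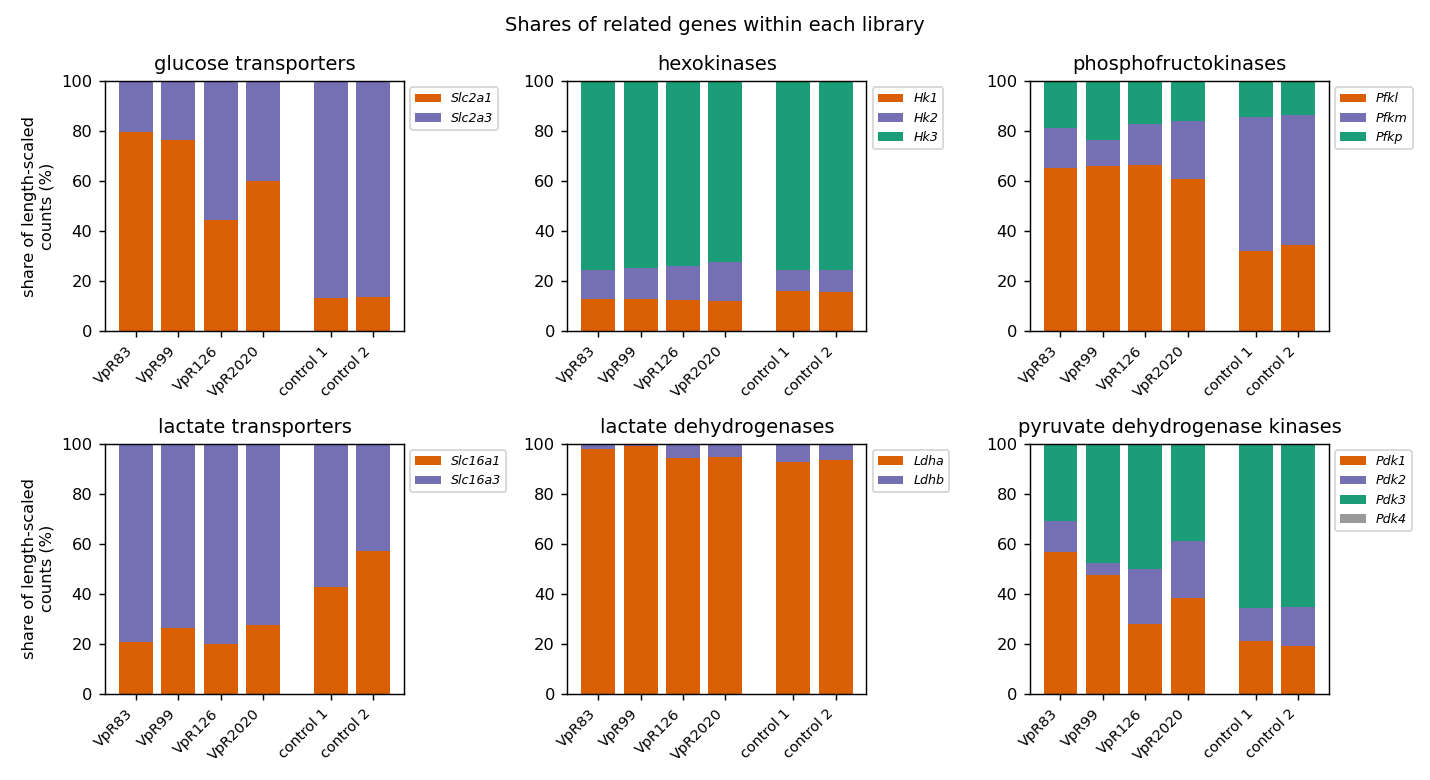
Share of each gene in the length-scaled counts of its family (%), in the 4 conditioned libraries at the left of each panel and the 2 controls at the right. Slc2a1, Pfkl, Slc16a3 and Pdk1 take a larger share in every conditioned library than in either control, and Hk3 leads the hexokinases in all 6 libraries.

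Among the 10 HIF targets without a role in glycolysis, 2 were called higher (22.5% of all tested genes were), 1 lower (19.7% of all tested genes) and 7 not called, with a median log2 fold change of 0.66. P4ha1, which encodes a catalytic subunit of the collagen prolyl hydroxylase (chr10:59323296-59373304) and holds 2 core motifs in its printed promoter stretch, had 117 CPM in VpR83, 128 in VpR99, 99.7 in VpR126 and 85.0 in VpR2020, against 15.3 and 16.9 CPM in the controls. The 4 conditioned libraries were close to each other and all far above the controls, and the log2 fold change was 2.74 ± 0.22 (edgeR adjusted p = 0.000693), which was called in all 11 alternatives. Bnip3, whose product marks mitochondria for removal (chr7:138890836-138909519), had 61.1, 83.5, 27.6 and 32.3 CPM in VpR83, VpR99, VpR126 and VpR2020, against 13.9 and 15.2 CPM in the controls (1.81 ± 0.50, edgeR adjusted p = 0.0287). Its groups did not overlap, but the call ended in 4 of 11 alternatives, among them the removal of VpR83 (0.055) or of either control.

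Bnip3l, the close relative of Bnip3 that clears mitochondria from maturing red cells, was not called. It had 123, 136, 133 and 149 CPM in VpR83, VpR99, VpR126 and VpR2020, against 155 and 144.6 CPM in the controls (−0.14 ± 0.14, edgeR adjusted p = 0.416). Its groups overlapped. Erythroid marker sums differed between the same groups by orders of magnitude, and the part of cell makeup in the level of Bnip3l was not tested. Mxi1, a MAX-binding antagonist of MYC, was the one lower target, with 36.9, 56.9, 36.5 and 43.0 CPM in VpR83, VpR99, VpR126 and VpR2020, against 79.7 and 79.5 CPM in the controls (−0.88 ± 0.21, edgeR adjusted p = 0.0161). All 4 conditioned libraries were below both controls, and the call ended without control replicate 1 or 2 (adjusted p = 0.0935 and 0.1).

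Egln1 and Egln3, prolyl hydroxylase genes that HIF itself induces, were not called. Egln1 was above both controls in all 4 conditioned libraries (73.5, 71.4, 44.6 and 52.9 CPM in VpR83, VpR99, VpR126 and VpR2020, against 36.6 and 39.7 CPM in the controls; 0.67 ± 0.24, edgeR adjusted p = 0.0622). Egln3, an example chosen after its values were seen, had 33.7, 50.3, 13.6 and 6.97 CPM, against 14.2 and 16.96 CPM in the controls. VpR83 and VpR99 were above both controls and VpR126 and VpR2020 below both. Ankrd37, an ankyrin repeat gene induced by hypoxia, split in the same way, with 5.02, 6.19, 1.10 and 0.719 CPM against 1.17 and 1.46 CPM (1.33 ± 0.95, edgeR adjusted p = 0.29). Its exons share 349 bases with Lrp2bp on the other strand.

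The remaining targets also overlapped the controls. Higd1a, a small mitochondrial membrane protein gene, had 24.3, 33.5, 20.5 and 17.6 CPM in VpR83, VpR99, VpR126 and VpR2020, against 27.5 and 28.5 CPM in the controls (−0.22 ± 0.27, edgeR adjusted p = 0.525). Ero1l, an oxidase of disulphide formation in the endoplasmic reticulum, was at 210.5 CPM in VpR99 and between 65.8 and 100.4 CPM in the other conditioned libraries, against 74.4 and 67.0 CPM in the controls (0.65 ± 0.51). Ndrg1, a stress-responsive gene, had a fitted value of −0.04 ± 0.57 that covered 88.5 CPM in VpR99 and 23.0 CPM in VpR126, and its sign turned in 4 of 11 alternatives. A fitted value near 0 was thus reached by libraries on opposite sides of the controls in Ndrg1 and by closely matched libraries in Bnip3l.

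**Figure D4:**
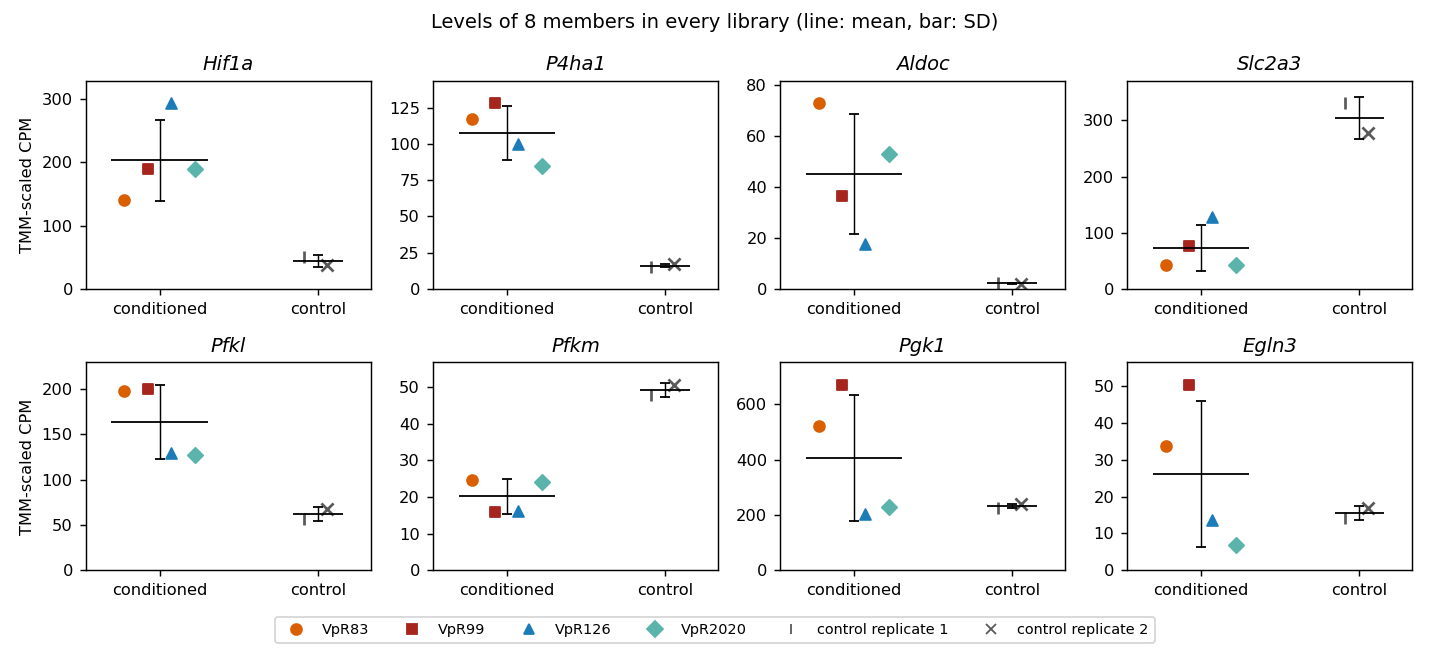
TMM-scaled CPM of 8 members in each library, with the mean (line) and SD (bar) of the conditioned and control groups. The groups are apart for Hif1a, P4ha1, Aldoc, Slc2a3, Pfkl and Pfkm, whereas for Pgk1 and Egln3 VpR83 and VpR99 lie above the controls and VpR126 below them.

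Most members varied among the 4 lines in a common order. VpR83 and VpR99 were the 2 highest of the 4 lines for 25 of 35 members, among them 13 of 17 enzymes and 8 of 10 HIF targets, whereas this pair was highest for 25.0% of all tested genes. The other 5 pairs were highest for 0 members (VpR83 and VpR126; 8.12% of all genes), 2 (VpR83 and VpR2020; 16.2%), 4 (VpR99 and VpR126; 19.0%), 3 (VpR99 and VpR2020; 9.17%) and 1 (VpR126 and VpR2020; 22.4%). VpR99 alone was highest for 26 members, against 28.9% of all tested genes. It is also the deepest library. With 1 library per line no line could be tested against another, and a line cannot be told apart from its library.

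Set against both controls, 24 members were above and 10 below in VpR83, 26 above and 8 below in VpR99, 13 above and 22 below in VpR126, and 15 above and 17 below in VpR2020. Of all tested genes, 44.0% to 45.1% were above both controls in a line and 45.7% to 47.9% below both. The median log2 difference of the members from the mean of both controls was 0.68 in VpR83, 1.14 in VpR99, −0.12 in VpR126 and −0.03 in VpR2020. For the 17 enzymes the medians were 0.96, 1.21, −0.12 and 0.03 in the same order, and for the 10 HIF targets 0.73, 1.24, −0.18 and −0.38. Hif1a did not share this order, being highest in VpR126 (2.74 on this scale) and lowest in VpR83.

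Proliferation genes were ordered in a similar way between the lines. All 12 had VpR83 and VpR99 as the 2 highest of the lines, and they summed to 2364 CPM in VpR83, 2857 in VpR99, 919 in VpR126 and 1148 in VpR2020, against 3517 and 3142 CPM in the controls. Above both controls were 1 of the 12 in VpR83, 2 in VpR99 and 0 in VpR126 and VpR2020. Their median log2 differences from the mean of both controls were −0.47 in VpR83, −0.10 in VpR99, −2.10 in VpR126 and −1.46 in VpR2020. Of the 12, 0 were called in edgeR (3 at an unadjusted p below 0.05, and 3 with DESeq2), and 7 were below both controls in all 4 conditioned libraries. The part of proliferation in the order of the lines was not tested. Neutrophil marker sums were lowest in VpR83 (3374 CPM) and highest in VpR99 (17740 CPM), and macrophage marker sums were 21980 CPM in VpR83, 17770 in VpR99, 24770 in VpR126 and 29550 in VpR2020.

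**Figure D5:**
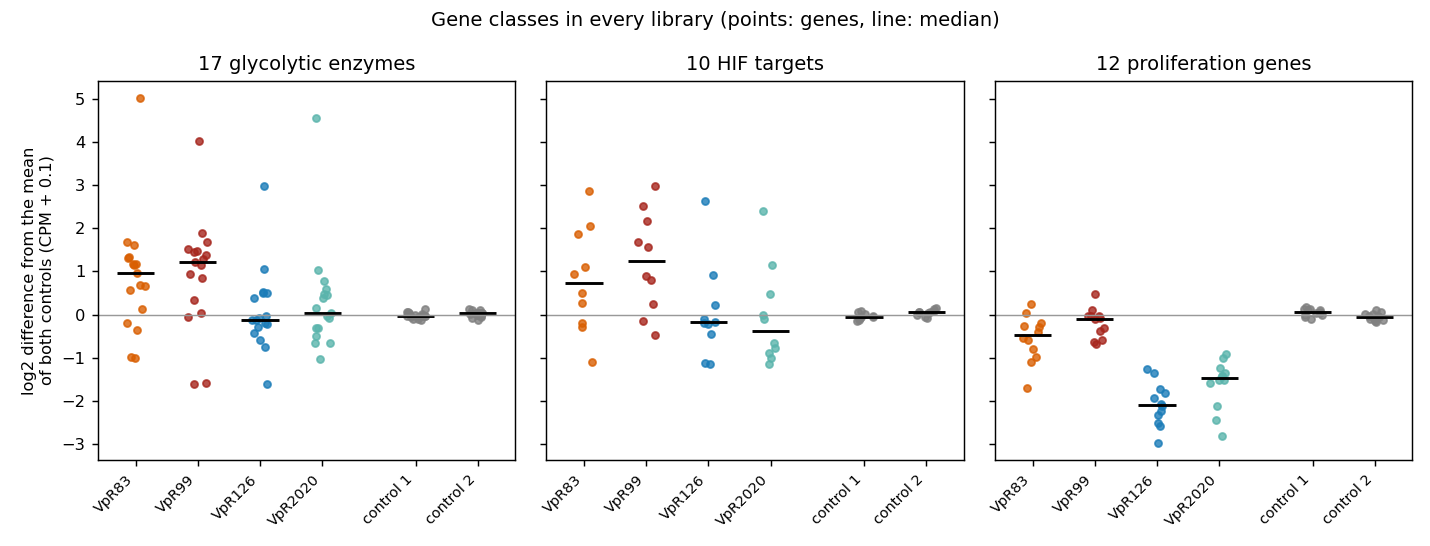
Log2 difference from the mean of both controls (CPM + 0.1) of 17 glycolytic enzymes, 10 HIF targets and 12 proliferation genes in each library, with points for genes and a black line for their median. The medians of enzymes and HIF targets are above 0 in VpR83 and VpR99 and near or below 0 in VpR126 and VpR2020, and the proliferation medians are below 0 in all 4 and lowest in VpR126.

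Neighbouring pathways were described by lists of other genes, whose counts stand beside 22.5% of all tested genes called higher and 19.7% called lower. Of 23 tested genes among 28 others of glycolysis and sugar transport, 6 were called higher and 7 lower (median log2 fold change −0.11). Slc16a7, which encodes the monocarboxylate transporter MCT2, had 33.0 ± 11.6 CPM in conditioned and 3.81 ± 0.0753 CPM in control libraries (3.11 ± 0.43, edgeR adjusted p = 0.00288), and the enolase gene Eno2 rose by 2.76 ± 0.61 at low level. Pklr, the pyruvate kinase of liver and red cells, had 1 count in the conditioned libraries together and 2578 in the controls, a ratio of pooled CPM of 9672-fold lower (95% counting interval 1734 to 382200). Slc2a4, the insulin-responsive glucose transporter, had 3 and 300 counts, 375.2-fold lower (127.2 to 1830). Adpgk, an ADP-dependent glucokinase, and Bpgm, which makes the red cell metabolite 2,3-bisphosphoglycerate, also fell (−3.36 ± 0.36 and −2.34 ± 0.34), and were chosen after their values were seen. Erythroid markers were close to 0 in the same conditioned libraries, and their part in Pklr and Bpgm was not tested.

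The pentose phosphate pathway, which branches off glucose-6-phosphate to make NADPH and ribose, had 2 of 10 genes called higher and 4 lower (median −0.52). H6pd and Prps2 rose by 0.95 ± 0.15 and 0.61 ± 0.19 on the log2 scale, while Rpia and Pgls fell by 1.74 ± 0.29 and 1.26 ± 0.12. Entry of pyruvate into mitochondria had 2 of 12 tested genes higher and 3 lower (median −0.03). The higher genes were Pdp2 and Pdp1, phosphatases that activate pyruvate dehydrogenase (2.25 ± 0.32 and 1.94 ± 0.30). Pcx, pyruvate carboxylase, and Mpc2, a subunit of the mitochondrial pyruvate carrier, were lower (−1.43 ± 0.35 and −1.21 ± 0.15).

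Of 26 tested genes among other HIF targets, 10 were called higher (22.5% of all tested genes were) and 2 lower (19.7%), with a median of 0.70. P4ha2, which encodes another catalytic subunit of the enzyme of P4ha1, had 7.71 ± 4.45 CPM in conditioned and 0.107 ± 0.0846 CPM in control libraries (6.05 ± 0.99, edgeR adjusted p = 0.00499). Its levels in control replicates 1 and 2 were 0.167 and 0.047 CPM, where 3 counts correspond to 0.1 and 0.141 CPM. The size of this fold change thus rests on very few control counts. The transcriptional repressor gene Bhlhe41 rose by 4.12 ± 0.83. Plod1, a collagen lysyl hydroxylase gene chosen after its values were seen, had 245.7 ± 52.2 CPM in conditioned and 20.96 ± 0.665 CPM in control libraries (3.55 ± 0.28, edgeR adjusted p = 0.00064). The chemokine receptor gene Cxcr4 and the stress gene Ddit4 were lower (−1.604 ± 0.268 and −1.002 ± 0.271). Without control replicate 1 or 2, 4 and 3 of these targets were called higher in place of 10, and 1 of the other glycolysis genes in place of 6.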

How the data were processed

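Raw read counts per Ensembl mouse gene were deposited by the authors, not normalized, for 6 libraries and 45706 identifiers. Stranded TruSeq libraries were made from RNA isolated with a NucleoSpin kit, per the labels' protocols. The names STAR 2.5.2b, Trimmomatic 0.38 and GRCm38 (genome build) come from the submitters' processing notes. How reads were counted, with which strand setting and annotation, is not given in the sources used. Symbols, coordinates and exon lengths came from GENCODE M21, which matched 45143 identifiers. Headers of the control columns name no medium, and those of VpR83, VpR99 and VpR126 carry the unexplained tags Ctrl, T1 and LT2.

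The analysis used edgeR 4.0.16 in R 4.3.3: filterByExpr at its defaults (15141 genes kept), TMM scaling, and the robust quasi-likelihood test of 4 conditioned against 2 control libraries without covariates, two-sided, Benjamini-Hochberg adjusted over all tested genes. Each SE was derived from the fitted fold change and its F statistic (fold change over the root of F, log2 scale). CPM values are TMM-scaled. The procedure was checked on simulated counts. Family shares used an exact permutation test over libraries. Values line by line used log2(CPM + 0.1), without a test. Counting intervals and floors cover counting error only.

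The members and lists were chosen with earlier results of these data known. Values in every library were given for Hif1a and for the 3 most positive and 3 most negative members of each role. Those printed for Hk2, Aldoa, Gapdh, Pgk1, Ldha, Egln1 and Egln3 were chosen after their values were seen. Of the other lists the 2 most positive and 2 most negative called genes were named. The 11 alternatives were RLE, upper-quartile and no scaling factors, no low-count filter, DESeq2 1.42.0, and leaving out each of the 6 libraries. Shares were also computed with the longest transcript. The line order under other scalings was added after seeing the data.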

Additional observations from a re-analysis of the deposited data

Results flagged for a closer look

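Of 60 groups of 4 conditioned libraries examined for a library far from the others (the levels of 35 members and 25 family shares), 1 stood out. Pfkfb4 had 94.33 CPM in VpR126, against 57.9, 61.0 and 57.7 CPM in VpR83, VpR99 and VpR2020 and 97.3 and 100 CPM in the controls. The gap to the nearest other conditioned library was 0.91 of the whole range, above Dixon's 95% critical value for 4 libraries. Chance marks about 1 in 20 such groups.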

How the results depend on the processing

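Hif1a, P4ha1 and Aldoc were the 3 of 11 called members that kept their call and direction in all 11 alternatives. RLE factors changed no member's call. Without 1 library, called genes ranged from 2201 to 7031 (6393 with all), members called higher from 3 to 13 and lower from 0 to 6, enzymes higher from 1 to 7 and lower from 0 to 3, HIF targets higher from 1 to 3 and lower from 0 to 1, other glycolysis genes higher from 1 to 8, pentose phosphate genes higher from 0 to 2 and lower from 2 to 5, pyruvate entry genes lower from 1 to 4, other HIF targets higher from 3 to 12 and lower from 0 to 3, and HIF control genes higher from 2 to 4 and lower from 1 to 2. The lowest counts of called genes came without control replicate 1 (2201) or 2 (2290), where the lone control is assumed to vary like the conditioned libraries. Under upper-quartile scaling and library totals alone, enzymes called higher and lower were 2 and 2, pentose phosphate genes called higher 1 and HIF control genes called lower 3, and under upper-quartile scaling other HIF targets called lower were 4. These scalings shift the median of all genes by −0.21 and −0.24, and higher genes made up 40.0% and 38.6% of calls in place of 53.3%. Without the low-count filter, 1 HIF target was called higher. The sign of Hk3 turned under upper-quartile scaling (−0.18), library totals (−0.21), and without control replicate 1 (−0.022), VpR83 (−0.0084) or VpR99 (−0.087), with −0.087 to 0.14 over the single libraries left out. Ndrg1 turned without the filter (0.018), control replicate 2 (0.07), VpR126 (0.21) or VpR2020 (0.19), with a range of −0.48 to 0.21, and Slc16a3 without control replicate 1 (0.21; range −0.89 to 0.21). The cause was not tested. Of 175 alternative values of family shares, 168 moved by less than the spread between libraries. The Pfkl share difference was 28.6 points with the longest transcript, and the Hk3 difference changed sign there (0.571 in place of −1.22). The count of members with VpR83 and VpR99 highest was 25 to 26 under the other scalings, and their medians line by line had no version with DESeq2 or without the filter. No paired analysis was possible because the conditioned libraries carry no replicate numbers in the labels. With 4 and 2 libraries, small differences of members with a wide spread between lines could not be resolved.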
